A study of Mus musculus with 4 samples.

Results

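The renin-angiotensin system was read out in 2 structures of the fetal mouse kidney, the cortical collecting duct and the anlage of the loop of Henle, on 4 oligonucleotide arrays. The members were 8 genes chosen by symbol: Ren1 (renin), Agt (angiotensinogen), Ace (angiotensin-converting enzyme), the angiotensin II receptors Agtr1a, Agtr1b and Agtr2, and the peptidases Mme (neprilysin) and Enpep (aminopeptidase A). In the platform table, 7 of the 8 genes were paired with 9 probe sets that carry no other symbol, out of 34945 such probe sets for 18193 genes. Ren1 was not matched to a probe set and is not analysed here. All kidneys came from wild-type CD-1 mice, an outbred stock, at stage E15.5 (E for embryonic day; Theiler stage 23), with sex recorded as unknown. The collecting duct was represented by 1 array and the loop anlage by 3 arrays, called anlage 1, 2 and 3. Each array held RNA from a pool of about 50 laser-captured sections of 5 kidneys, amplified over 2 rounds. The labels do not say whether pools shared kidneys or litters, so part of the scatter between arrays may be technical. The p-values set a difference against scatter between arrays, of which only the 3 anlage arrays give a measure.

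Renin cuts angiotensinogen to angiotensin I, which Ace trims to angiotensin II, and aminopeptidase A and neprilysin break these peptides down further. Angiotensin II acts through type 1 receptors, of which rodents have a pair of genes, and through the type 2 receptor, which is abundant in fetal mesenchyme, including that of the developing kidney. In the maturing kidney renin is made by mural cells of the arterioles, and the peptidases are best known from the brush border of the proximal tubule and from the podocyte. Mice without components of this system develop defects of the renal papilla, the pelvis or the ureter.

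Values are given as deposited signal, on a linear scale with each array set by the authors to the same trimmed mean, and as log2 values after quantile normalization with an offset of 109.6 signal units. A probe set whose mean over the arrays lay under a log2 value of 8.42 (the 40th percentile) was called dim and not tested. Differences are collecting duct minus anlage on the log2 scale, from limma fitted over all 12642 tested genes. Signal of different probe sets cannot be compared as transcript abundance, so each gene is compared only with itself across arrays.

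In marker genes the arrays matched their labels, but they differed within the anlage. Of 12 tested collecting duct markers, all lay above the anlage mean in the collecting duct and 10 above all 3 anlage arrays. The 10 loop of Henle markers all lay below the 3 anlage arrays there. The lists were chosen with earlier results of these data known, so these counts are not an independent check. Umod, which encodes uromodulin, stood at 8.34 in the collecting duct and at 14.50, 11.66 and 14.46 in anlage 1, 2 and 3. The sodium channel subunit Scnn1g stood at 12.18 against 7.14, 9.65 and 7.43. For both genes anlage 2 was thus the anlage array closest to the collecting duct. Over all tested genes it was the least like it, with correlations of the collecting duct with anlage 1, 2 and 3 of 0.90, 0.87 and 0.90. Within the anlage the correlations were 0.81 (1 with 2), 0.89 (1 with 3) and 0.91 (2 with 3), so the groups did not separate. The 3' to 5' signal ratio of beta-actin, which grows as RNA is shortened, was 3.56 in the collecting duct and 3.06, 6.41 and 5.42 in the anlage arrays. Values lay lower in the collecting duct for 13 of 13 tested proximal tubule markers, 3 of 5 podocyte, 8 of 9 renin cell and mural, 7 of 9 interstitial stroma, 8 of 8 endothelium, 4 of 5 early nephron and 4 of 5 leukocyte markers, where 54.9% of all tested genes lay lower. No gene of any list was called over all genes.

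No member differed between the structures at an adjusted p under 0.05. Of the 5 members bright enough to be tested (Agtr1a, Agtr1b, Agtr2, Mme and Enpep), 0 were called, and over all genes limma called 0 of 12642 (0%), with 431 genes (3.41%) at an unadjusted p under 0.05. A share of 3.41% is less than a threshold of 0.05 would pass if no gene differed. Of the 5 members 1, Agtr1b, was among those 431, and it passed the dim filter only with its collecting duct value included. It was also the only tested member whose collecting duct value lay above all 3 anlage arrays, as 17.3% of all tested genes did. Agtr1a and Agtr2 lay below all 3, as 24.3% of all tested genes did. The median difference of the 5 was −0.16, against −0.06 over all tested genes. Agt and Ace were dim and could not be tested, while Agtr1a, Agtr2, Mme and Enpep lay above the dim level on every array.

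**Figure D1:**
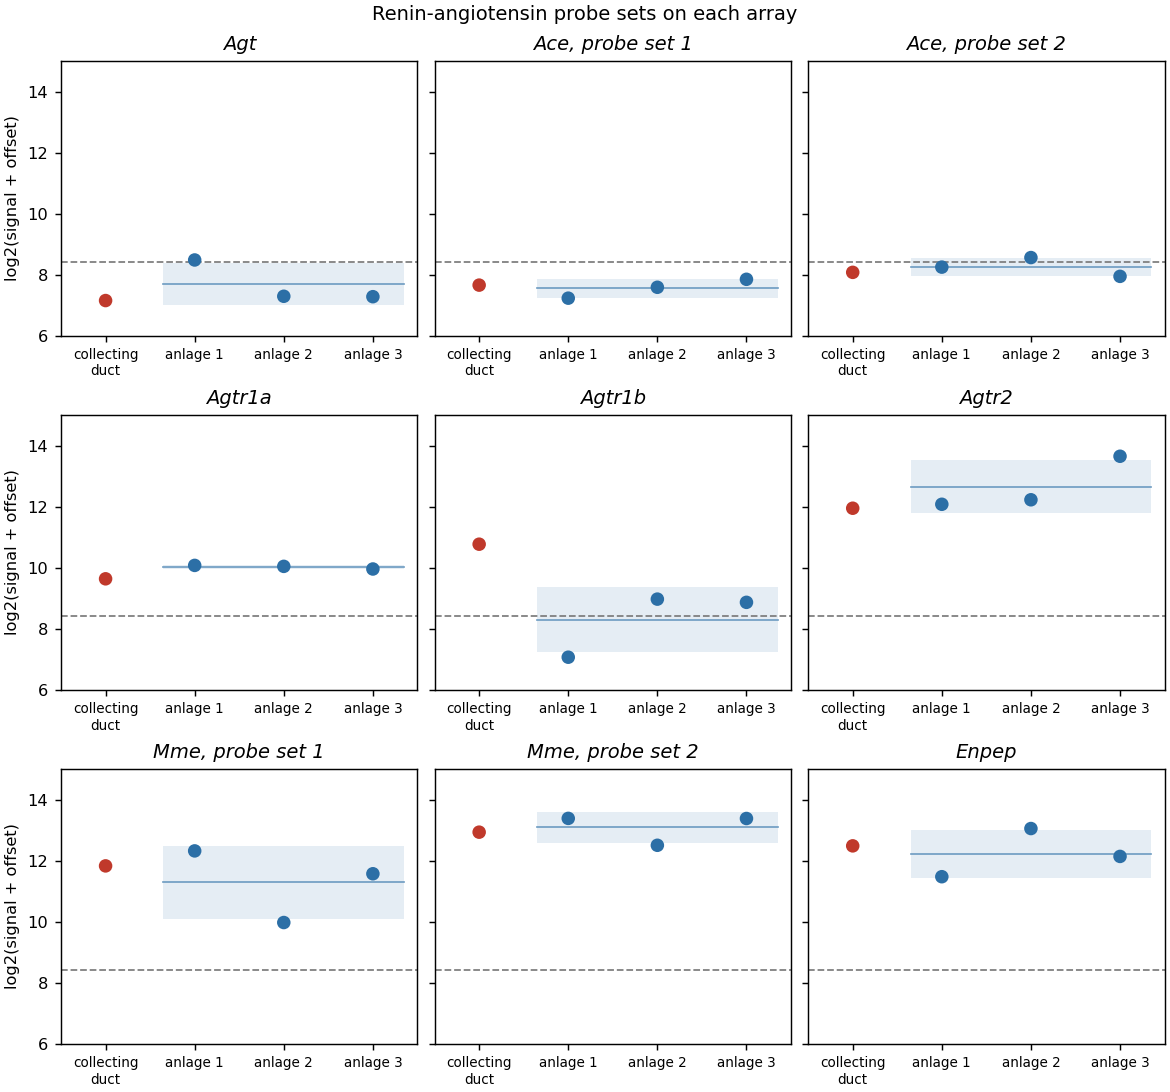
Log2(signal + offset) of the 9 member probe sets on the collecting duct array (red) and the 3 anlage arrays (blue). The line and band show the anlage mean ± SD (n = 3) and the dashed line the dim level of 8.42. Agtr1b is highest in the collecting duct, Agtr2 in anlage 3 and Enpep in anlage 2.

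Angiotensinogen transcript was near the floor of the measurement in 3 of the 4 arrays. The Agt probe set had a deposited signal of 31.0 in the collecting duct and of 359, 23.6 and 47.0 in anlage 1, 2 and 3. Anlage 1 was thus the high array, 11.6 times the collecting duct, and in deposited signal the groups overlapped. On the log2 scale these values were 7.15 against 8.48, 7.29 and 7.28, with the collecting duct below all 3 anlage arrays but only anlage 1 above the dim level, so Agt was not tested. The anlage mean was 7.68 ± 0.69 (SD, n = 3).

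Angiotensin-converting enzyme was dim in both of its probe sets. The first read 92.6 signal units in the collecting duct and 60.3, 41.9 and 121 in the anlage arrays. The second read 165 against 283, 144 and 135. In each the collecting duct value lay inside the anlage range, and the log2 differences were 0.10 and −0.18. With 7 of the 8 log2 values of its probe sets under the dim level, a difference in Ace was not detectable at this signal.

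Of the receptors, Agtr1b, which encodes a type 1 angiotensin II receptor, showed the largest difference among the tested members. Its signal was 1720.2 in the collecting duct and 36.0, 221 and 332 in anlage 1, 2 and 3. The collecting duct array was the highest of the 4, with 5.18 times the signal of the nearest, anlage 3, and the groups did not overlap. The log2 values were 10.77 against 7.06, 8.97 and 8.86 (anlage mean 8.30 ± 1.07, SD, n = 3). The difference of 2.47 ± 0.86 (SE) corresponds to a 5.54-fold higher value, with a 95% interval of the log2 difference from 0.37 to 4.57. It did not pass over all genes (limma, unadjusted p = 0.0283, adjusted p = 1.00), and it ranked 249 of 12642 genes by p. The anlage mean lay under the dim level, and the mean over all arrays, 8.92, passed it only with the collecting duct value included. The p-value and the rank thus belong to a gene that was tested because of its high array. The size also depends on the offset, and the difference was 2.07 at a doubled offset and 2.79 at a halved one.

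Without anlage 1, the lowest array for this gene, the Agtr1b difference was 2.00. Collecting duct markers were also highest in the collecting duct, with a list mean of 12.52 there and 9.72, 10.81 and 9.77 in anlage 1, 2 and 3. On the log2 scale this is the array order of Agtr1b, though anlage 1 and 3 lay almost level for the markers. Summed marker signal was 119468 against 15153.5, 49798 and 11061. In deposited signal the order within the anlage thus differed from that of Agtr1b, which was lowest in anlage 1 and highest in anlage 3. None of these markers was listed at 0, and their part in the Agtr1b values was not tested. Agtr1b rests on a single probe set, so no second reading of it was available here.

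Agtr1a, the other type 1 receptor, varied least of the tested members within the anlage after normalization. Its signal was 761 in the collecting duct and 1198, 683 and 825 in anlage 1, 2 and 3. The log2 values of 10.07, 10.04 and 9.96 gave an anlage SD of 0.06, and 98.4% of tested genes had a larger one. In deposited signal anlage 1 was 1.75 times anlage 2. The collecting duct value of 9.63 lay below all 3, by 0.39 on average. The moderated test, which draws the spread toward that of other genes, gave an SE of 0.50 and an adjusted p of 1.00 (limma), and the 95% interval from −1.62 to 0.84 leaves room for a difference in either direction. Deposited signal in the collecting duct was not below anlage 2, so the lack of overlap appeared only after the arrays were normalized to each other. The difference was −0.19 on the deposited values without further normalization.

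Agtr2, the type 2 receptor, varied more within the anlage than between the structures. Its signal was 3909 in the collecting duct and 4053, 4948 and 13389.9 in anlage 1, 2 and 3. Anlage 3 stood apart at 3.43 times the collecting duct and 2.71 times anlage 2, while the other arrays lay close together. The log2 values were 11.95 against 12.08, 12.23 and 13.65 (anlage mean 12.65 ± 0.87, SD, n = 3), a difference of −0.70 ± 0.74 (SE; limma, adjusted p = 1.00, 95% interval from −2.52 to 1.11). Without anlage 3 the difference was −0.20. The collecting duct was the lowest array in deposited signal and after quantile normalization, but close to anlage 1. The median deposited signal was 402.74 in the collecting duct and 526.46 in anlage 1. The order of these 2 arrays therefore turns when arrays are scaled to a common median.

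Markers of interstitial stroma, where this receptor is known in the fetal kidney, were also highest in anlage 3. Of the 9 stroma markers, 7 had their highest value in that array, where 21.9% of all tested genes had theirs. Their summed signal was 284770 in anlage 3 against 110325 and 118169 in anlage 1 and 2 and 127289 in the collecting duct. Lum (lumican, a matrix proteoglycan) stood at 14.66 in anlage 3 and at 8.92, 8.12 and 10.10 in the collecting duct and anlage 1 and 2. Decorin (Dcn) stood at 14.80 against 11.76, 12.17 and 10.53. Not every marker followed, since Foxd1, a transcription factor of cortical stroma, was highest in anlage 1, at 13.94.

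Mural markers, among which renin cells belong, behaved alike in part. Their summed signal was 111542 in anlage 3, 37448 in anlage 2, 22986 in anlage 1 and 16621 in the collecting duct, and 4 of 9 were highest in anlage 3. The smooth muscle myosin Myh11 stood at 13.13 in anlage 3 and at 7.87, 8.22 and 9.12 in the collecting duct and anlage 1 and 2. The pericyte gene Rgs5 stood at 12.45 and 12.32 in anlage 3 and 2, and at 9.83 and 8.86 in anlage 1 and the collecting duct. Its other probe sets were dim and did not repeat this order. With all Rgs5 probe sets averaged, the difference between the structures went from −2.68 to −0.99. None of the stroma or mural markers was listed at 0. Their part in the Agtr2 values was not tested, and in such captured pools more cells of a type and more RNA per cell cannot be told apart.

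**Figure D2:**
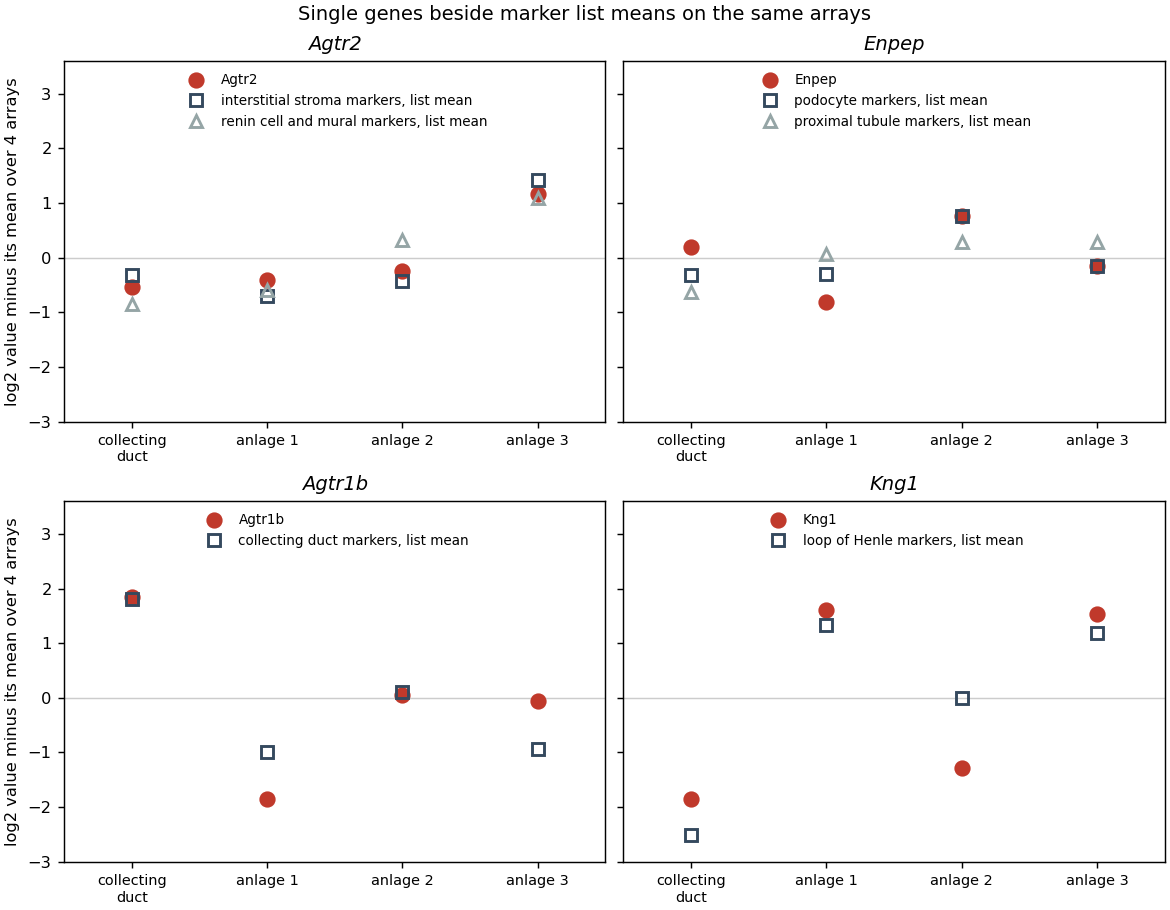
Log2 value of Agtr2, Enpep, Agtr1b and Kng1 (red) on each array, minus its own mean over the 4 arrays, beside the mean of marker lists treated the same way (open symbols). Agtr2 and the stroma list are highest in anlage 3, Enpep and the podocyte list in anlage 2, and Agtr1b and the collecting duct list in the collecting duct.

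The peptidases were bright in both structures, with no difference beyond the spread. Mme encodes neprilysin, a membrane peptidase that cleaves angiotensins among many other peptides. Its brighter probe set read 7513 signal units in the collecting duct and 9229, 6225 and 10910 in anlage 1, 2 and 3, so the collecting duct lay inside the anlage range. The log2 values were 12.94 against 13.39, 12.51 and 13.38, a difference of −0.16 ± 0.55 (SE; limma, adjusted p = 1.00, 95% interval from −1.51 to 1.20). The interval spans more than a doubling in either direction.

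The other Mme probe set gave the opposite sign. It read 3593 in the collecting duct and 4722, 637 and 2859 in the anlage arrays, with a log2 difference of 0.54, and the collecting duct again lay inside the anlage range. Both probe sets were lowest in anlage 2, but by unequal amounts: from anlage 1 to anlage 2 the log2 value was lower by 2.35 in this probe set and by 0.88 in the brighter one. Anlage 2 was the array with the highest 3' to 5' ratios, 6.41 for beta-actin and 54.1 for Gapdh, and their part in this gap was not tested. The mean of both probe sets differed by 0.19.

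Enpep encodes aminopeptidase A, which removes the first residue of angiotensin II. Its signal was 5583 in the collecting duct and 2811, 9399 and 4323 in anlage 1, 2 and 3. The extremes were both anlage arrays, 3.34-fold apart, with the collecting duct between them. The log2 values were 12.49 against 11.48, 13.05 and 12.14 (anlage mean 12.22 ± 0.79, SD, n = 3). The difference was 0.26 ± 0.71 (SE; limma, adjusted p = 1.00, 95% interval from −1.47 to 1.99). It was −0.11 without anlage 1 and 0.64 without anlage 2, and −0.074 with all arrays scaled to a common median, so its direction turned with the arrays included and with the scaling.

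Most podocyte markers, 5 of 6 with a probe set, had their highest value in anlage 2, where 39% of all tested genes had theirs. So did 5 of 7 early nephron and 5 of 10 endothelium markers, but 0 of 9 interstitial stroma and 0 of 10 loop of Henle markers. The exception among the podocyte markers, the adaptor gene Cd2ap, was lowest in anlage 2 in its brightest probe set, at 14.04. It stood at 15.16, 14.66 and 15.02 in the collecting duct and anlage 1 and 3. Another Cd2ap probe set was also lowest in anlage 2, at 9.74. A further one was highest there, at 12.91, almost level with the collecting duct at 12.90. The receptor phosphatase Ptpro stood at 12.67 in anlage 2 and at 10.02, 11.995 and 11.51 in the collecting duct and anlage 1 and 3. Podxl (podocalyxin) stood at 13.57 in anlage 2 and at 11.91, 11.17 and 11.95 in the collecting duct and anlage 1 and 3. The slit diaphragm gene Nphs1 was dim, at 8.86 in anlage 2 and 7.79 in the collecting duct. Summed signal of the list was 49108 in anlage 2, 44974 in the collecting duct and 32228 and 45043.5 in anlage 1 and 3, with none listed at 0. The podocyte list mean was 11.02 in the collecting duct and 11.04, 12.10 and 11.18 in anlage 1, 2 and 3. That of proximal tubule markers, the other known site of Enpep, was 9.20 against 9.89, 10.12 and 10.11. Both list means were thus lowest in the collecting duct and highest in anlage 2, but by near ties. The podocyte list was almost level in the collecting duct and anlage 1, and the proximal tubule list in anlage 2 and 3. Enpep was lowest in anlage 1, as was the summed signal of the podocyte list. Cd2ap alone gave 35645.5 of that sum in the collecting duct and 22672, 19036 and 36211 in anlage 1, 2 and 3. The low sum in anlage 1 thus rests on Cd2ap. Summed proximal tubule signal was lowest in the collecting duct and highest in anlage 3. The part of either cell type in the Enpep values was not tested.

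Further genes of the pathway were measured for comparison. Of 17 listed, 13 had a probe set and 9 were tested: in the collecting duct 5 read higher (55.6%, against 45.1% of all tested genes) and 4 lower, and 0 were called. Ctsa and Nln, among the 5, differed by 0.00. The median difference was 0.00 against −0.06 over all tested genes. Lnpep, Mrgprd and Ren2 were among those not matched to a probe set, and Anpep, Ctsg, Mas1 and Mcpt4 were dim. Mas1, a receptor for a shorter angiotensin peptide, stood between 6.87 and 7.65 on all 4 arrays.

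Atp6ap2, the prorenin receptor and a proton pump accessory subunit, stood at 12.51 in the collecting duct and at 13.09, 13.55 and 13.49 in anlage 1, 2 and 3 on the log2 scale. The collecting duct lay below all 3 arrays, and its difference of −0.87 ± 0.46 (SE) did not pass (limma, unadjusted p = 0.109, adjusted p = 1.00). The other Atp6ap2 probe sets differed by −1.37 and −0.79, the same way. In each of the 3 probe sets the collecting duct was the lowest array.

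Cpa3, a mast cell carboxypeptidase able to process angiotensin I, split the anlage. It stood at 7.25 in the collecting duct and 7.07 in anlage 1, both under the dim level, and at 9.70 and 10.42 in anlage 2 and 3. Its difference was −1.81 ± 1.27 (SE; limma, adjusted p = 1.00), and −2.92 without anlage 1. Cma1, the mast cell chymase, was close to the dim level throughout, between 8.26 and 8.73.

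Thop1, an oligopeptidase that acts on angiotensin I, differed by 0.19 ± 0.53 (SE), and Agtrap, which binds the type 1 receptor, by −0.14 ± 0.51. The 5 other tested pathway and kinin genes, Ctsa, Klk1, Nln, Prcp and Prep, had differences between −0.08 and 0.06.

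The kinin system shares its peptidases with the renin-angiotensin system, since Ace and neprilysin also degrade bradykinin. Of 4 listed genes 2 were tested, and both receptors, Bdkrb1 and Bdkrb2, were dim. Kng1, which encodes the bradykinin precursor kininogen, stood at 9.56 in the collecting duct and at 13.02, 10.14 and 12.96 in anlage 1, 2 and 3. The collecting duct was the lowest array and anlage 2 lay close to it. The difference was −2.48 ± 1.20 (SE; limma, unadjusted p = 0.0843, adjusted p = 1.00), and −3.21 without anlage 2 (adjusted p = 0.11). A second Kng1 probe set differed by −0.38 only, and by its values of 8.79 against 9.88, 8.18 and 9.44 the collecting duct lay inside the anlage range.

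Loop of Henle markers had the same highest and lowest arrays as Kng1 in its brighter probe set. Their list mean was 8.25 in the collecting duct and 12.10, 10.76 and 11.94 in anlage 1, 2 and 3. Their part in the Kng1 values was not tested. Klk1, a kallikrein, differed by −0.08 ± 0.56 (SE). Its probe set name ends in x_at, as do those of 2 of the 3 Atp6ap2 probe sets, the maker's mark for probes that may bind related sequences. Kallikreins are a family of close copies.

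**Figure D3:**
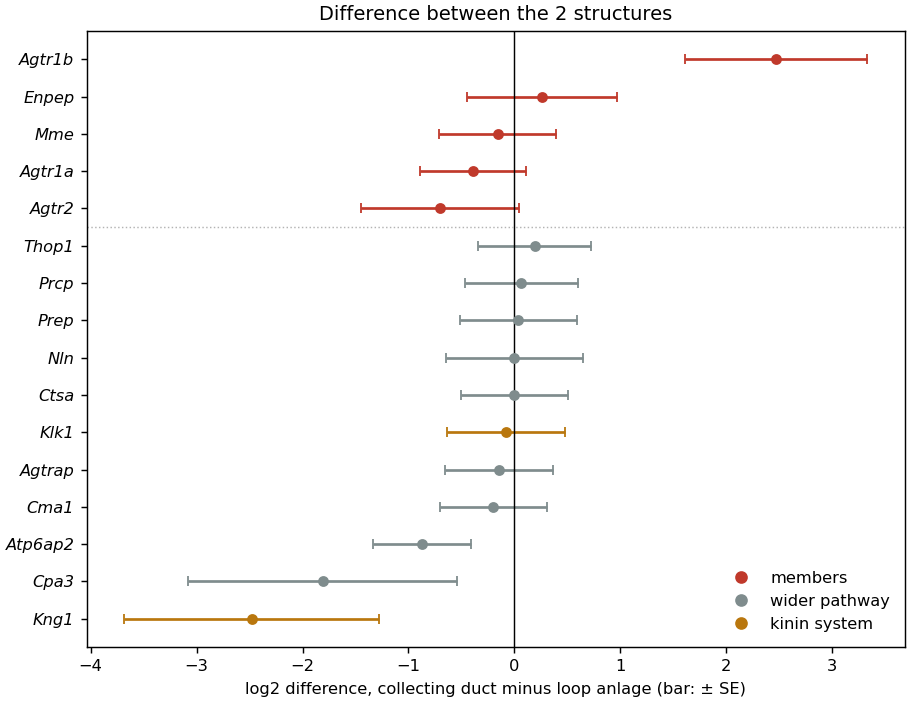
Log2 difference, collecting duct minus loop anlage, with its SE from limma, for the 5 tested members (red), 9 further pathway genes (grey) and 2 kinin genes (ochre). Agtr1b at 2.47 and Kng1 at −2.48 are the extremes, and none passed the adjusted threshold.

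Genes with the pattern most like each member were sought over the 4 arrays, by the root mean square distance between log2 values centred on each gene's mean. For Agtr1b they were Lypd6 (distance 0.14) and Cyp1b1 (0.14), and 4 genes lay within 0.25. Lypd6 stood at 13.39 in the collecting duct and at 9.73, 11.42 and 11.71 in the anlage arrays. Its other probe sets were also highest in the collecting duct, while the other probe sets of Cyp1b1 were highest in anlage 2. For Agtr2 the nearest genes were Myom1 (0.08) and Reep1 (0.10), with 46 genes within 0.25. Both were highest in anlage 3, but a further, dim probe set of Reep1 was lowest there. For Enpep the nearest genes were Plce1 (0.03) and Keg1 (0.04), and 641 genes lay within 0.25. These counts cannot be compared between members, since a gene that ranges more widely has fewer neighbours at a fixed distance. Agtr1a and Mme ranged over less than 1 log2 unit and were not compared in this way.

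**Figure D4:**
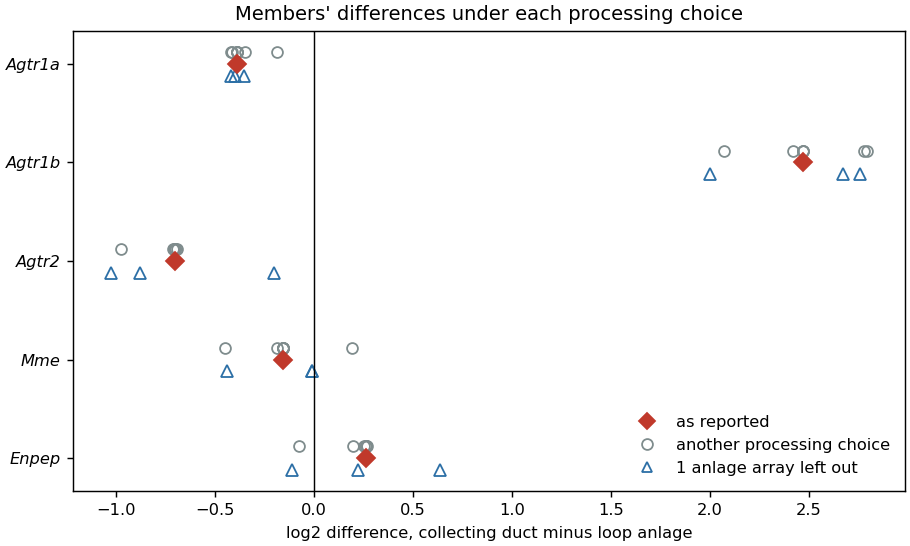
Log2 difference of the 5 tested members as reported (red diamonds), under other processing choices (grey circles) and with 1 anlage array left out (blue triangles). Agtr1b stays between 2.00 and 2.79, Agtr1a and Agtr2 stay below 0, and Mme and Enpep cross 0.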

How the data were processed

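RNA of 4 pools was measured on 4 arrays. The deposited table holds linear intensity values, 1 per probe set and array, from the software GCOS (named in the submitters' processing notes, version not stated there). Each array had been scaled: after trimming 2% of values at each end, all means were 1500.01. Detection calls were not used here, and the number of arrays limits the precision.

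Arrays were quantile normalized, and log2(signal + 109.6) was taken, the offset being the 25th percentile. Such folds understate changes of dim genes. The 64 control probe sets were then left out. Of the other 45037, 34945 had 1 symbol in the platform table, 932 several and 9160 none. Each gene was read from its probe set with the highest mean, and genes under the 40th percentile (8.42) were not tested. limma 3.58.1 in R 4.3.3 (lmFit, eBayes with intensity trend, two-sided, Benjamini-Hochberg over 12642 genes, threshold 0.05) compared 1 with 3 arrays, with 2 residual degrees of freedom. These came from the anlage, whose spread was taken to hold for the lone collecting duct array too. A permutation test could not go below 0.25. The fit was first tested on data with known answers, where it rarely called changes as small as most of those given here.

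All member probe sets were named. Of the pathway and kinin lists the 6 tested genes with the largest difference were named, 1 or both of the 2 with the largest difference in marker lists that a result turned on, and for members ranging over more than 1 the 2 nearest genes. Podxl, Nphs1, Foxd1, Mas1 and the remaining pathway genes were named after their values were seen. Members and lists were chosen with earlier results of these data known. No coordinates are given, since no genome build was named.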

Additional observations from a re-analysis of the deposited data

How the results depend on the processing

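The differences were recomputed with arrays scaled to a common median, with the deposited signal, with the offset halved or doubled, without the dim filter or with a stricter one (60th percentile, which left Agtr1b out), with the mean of a gene's probe sets, with every probe set tested, without the intensity trend, and without each anlage array. No member was called under any of these. Agtr1b ranged from 2.00 to 2.79, Agtr1a from −0.42 to −0.19 and Agtr2 from −1.03 to −0.20. Scaling to a common median moved the median of all genes from −0.06 to −0.24, and there Enpep was −0.074 and Keg1 −0.0078. With an anlage array left out, Enpep ranged from −0.11 to 0.64, Plce1 from −0.073 to 0.68 and Keg1 from −0.21 to 0.55, lowest without anlage 1, and Dcn from −1.69 to 0.40, highest without anlage 3. Mme turned with its probe sets averaged (0.19) and Agtrap on deposited signal (0.016). The cause was not tested. Over all genes, leaving out an anlage array gave 0 to 14 calls, the 14 without anlage 2, with 1 residual degree of freedom. The count at an unadjusted p under 0.05 was 1401 without anlage 1, 192 without anlage 3 and 647 without the filter, which tests more genes. No paired analysis was possible because there was only 1 collecting duct array and the labels give no pairing of pools. Dim signal limits Agt and Ace.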
